A study of Homo sapiens with 8 samples.

Results

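The nuclear-encoded genes of the mitochondrial respiratory chain were examined in U-87MG cells, a long-established line from a human glioblastoma. The genes were taken by symbol: every row of the deposited table whose platform annotation gave a single symbol beginning with NDUF, COX4 to COX8, ATP5 or UQCR, or equal to SDHA, SDHB, SDHC or SDHD. This gave 78 genes of the 11822 tested, each with 1 row. The cells had received 50 µM indole-3-carboxaldehyde (I3CA), an aldehyde related to tryptophan, or the solvent DMSO, and were harvested after 24 h. The solvent stayed at or below 0.2% of the medium in both groups. All 8 arrays carry U-87MG as their cell line label. The treatment protocol, shared with other experiments, also speaks of U-87MG with a control hairpin and does not say which of them received I3CA. Each group held 4 arrays. The labels call them biological replicates and do not state whether they were separate cultures, so the p-values below measure the spread between these arrays, which may be technical. The I3CA group is a model of 1 cell line at 1 dose and 1 time. The comparison addresses the response of the cells to I3CA, which the protocol counts, as known or presumed, among the ligands of AHR (the aryl hydrocarbon receptor), a transcription factor that such ligands activate.

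The respiratory chain sits in the inner mitochondrial membrane. Complex I (NADH dehydrogenase) and complex II (succinate dehydrogenase) pass electrons to ubiquinone, complex III passes them to cytochrome c, and complex IV (cytochrome c oxidase) passes them to oxygen. The proton gradient built on the way drives complex V, the ATP synthase. Complex II is encoded by nuclear genes alone, while the other complexes also need subunits encoded by mitochondrial DNA. Many nuclear subunit genes are known to be controlled by the transcription factors NRF1, GABP (of the ETS family) and YY1. Glioblastoma cells are known for high glycolysis, and many of them still respire.

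No respiratory chain gene passed the test between I3CA and DMSO. In limma, fitted over all genes, 0 of the 78 had a Benjamini-Hochberg adjusted p under 0.05, against 1 gene or 0.00846% of all genes tested (SLC16A6, a transporter gene outside the chain). At an unadjusted p under 0.05 the count was also 0 of 78, where 3.16% of all genes lay under that limit. The smallest unadjusted p among the 78 was 0.087, for NDUFA8, and the adjusted p of each was 1.00. Values are log2 expression, so a difference of 1 would be a doubling, and differences are I3CA minus DMSO.

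The differences were small. They ran from -0.32 for ATP5L2 to 0.21 for NDUFB8, with a median of -0.037, against a median of -0.0085 over all genes. The mean was lower with I3CA in 53 of the 78 genes (67.9%) and higher in 25, where it was lower in 53.4% of all genes tested. The 95% interval of the difference lay within 1.5-fold either way (0.585 on the log2 scale) for 77 of the 78, against 93.5% of all genes. The exception was ATP5L2, whose interval reached from -0.70 to 0.06. These intervals are not adjusted for the number of genes. The median residual standard deviation was 0.128 for the 78 genes and 0.147 for all genes.

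**Figure D1:**
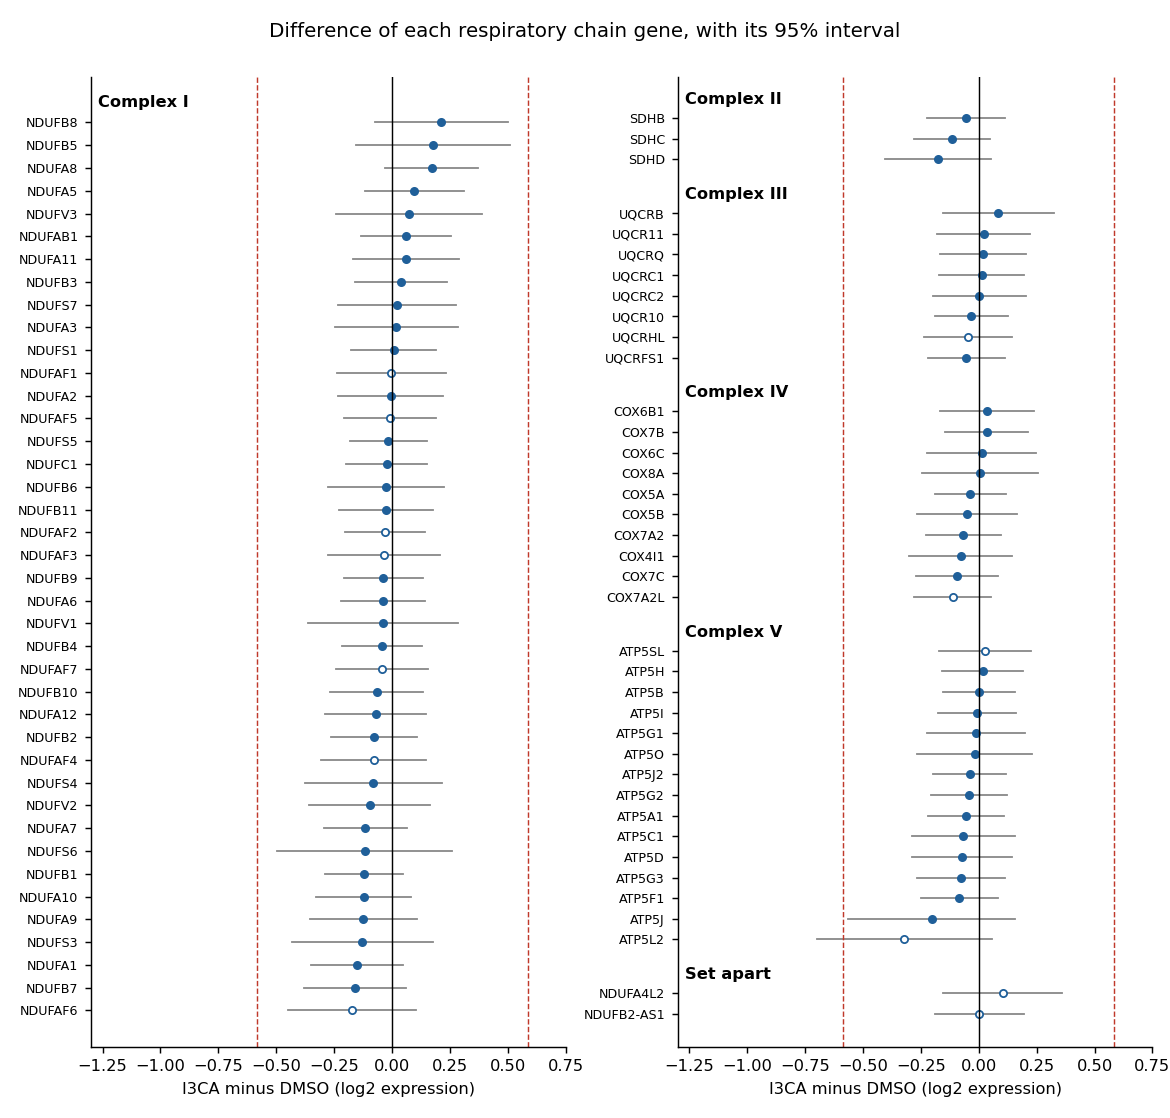
Difference between I3CA and DMSO (log2 expression, points) with its 95% interval (lines) for each of the 78 genes, grouped by symbol; filled points are subunits, open points are other genes, and dashed lines mark 1.5-fold either way. All intervals cross 0, and only that of ATP5L2 crosses a dashed line.

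Complex I was represented by 40 genes, 33 of them subunits and 7 assembly factors, with a median difference of -0.037 and 29 of 40 lower with I3CA. The 5 core subunits among these genes belong to the arm that reaches into the matrix, where the flavin and the iron-sulfur clusters sit. Their differences lay between -0.13 and 0.02. NDUFS8, another core subunit, shared its row with a further symbol and was left out. NDUFS3, which helps to form the junction towards the ubiquinone site, read 8.68, 8.84, 8.89 and 8.75 in DMSO replicates 1 to 4 and 8.41, 8.44, 9.06 and 8.72 in I3CA replicates 1 to 4. I3CA replicates 1 and 2 were below every DMSO array and replicate 3 above every one, so the groups overlapped (-0.13 ± 0.14 SE). A row annotated to both NDUFS3 and PTPMT1 was left out by the rule. It read 9.11, 9.27, 9.38 and 9.23 with DMSO and 8.83, 9.09, 9.20 and 9.31 with I3CA. There, too, I3CA replicates 1 and 2 were lowest, but replicate 3 lay among the DMSO arrays. NDUFV2, an iron-sulfur subunit, differed by -0.10 ± 0.12, NDUFV1, which binds NADH, by -0.04 ± 0.15, NDUFS7, which carries the last iron-sulfur cluster, by 0.02 ± 0.11 and NDUFS1, the largest core subunit, by 0.01 ± 0.08. Averaged over the 5 core genes, the mean of an array spread more with I3CA (9.37 ± 0.16 SD, n = 4) than with DMSO (9.41 ± 0.03 SD, n = 4). That spread was not tested.

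Of the 28 accessory subunits of complex I, which surround the core and are needed for its assembly and stability, 19 were lower and 9 higher by mean. NDUFB8, a membrane arm subunit, had the highest difference of all 78 genes. It read 8.68, 8.28, 8.35 and 8.28 with DMSO and 8.42, 8.52, 8.93 and 8.58 with I3CA. DMSO replicate 1 lay above 3 of the 4 I3CA arrays, so the difference of 0.21 ± 0.13 (SE) was within the spread. It was 0.11 without I3CA replicate 3 and 0.31 without DMSO replicate 1. NDUFB5, another membrane arm subunit, read 9.22, 9.04, 8.93 and 8.98 with DMSO and 8.77, 9.39, 9.17 and 9.53 with I3CA, the lowest and the highest of its 8 values both being I3CA arrays (0.18 ± 0.15). Without I3CA replicate 4 the difference was 0.07, and without I3CA replicate 1 it was 0.32. NDUFA8, a subunit on the side of the intermembrane space, differed by 0.17 ± 0.09 (8.82 ± 0.10 SD with DMSO against 8.99 ± 0.13 SD with I3CA, n = 4 each).

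At the other end, NDUFB7 read 9.52, 9.20, 9.29 and 9.12 with DMSO and 9.21, 9.08, 9.02 and 9.19 with I3CA. Only DMSO replicates 1 and 3 stood above all I3CA arrays, and the difference was -0.16 ± 0.10, or -0.08 without DMSO replicate 1. NDUFA1, a small membrane subunit, followed at -0.15 ± 0.09. NDUFA7 differed by -0.12 ± 0.08 and NDUFS6, a zinc-binding subunit, by -0.12 ± 0.17, the widest SE in this complex. DMSO replicate 3 (9.15) and I3CA replicate 1 (9.10) of NDUFS6 were both low, with its other arrays between 9.60 and 9.92. NDUFB4 and NDUFB6, both of the membrane arm, differed by -0.04 ± 0.08 and -0.03 ± 0.11, and NDUFA2 by -0.01 ± 0.10. The steadiest of the complex was NDUFS5, whose 8 arrays spanned 0.15.

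Assembly factors build complex I and leave it afterwards. All 7 with an NDUFAF symbol had lower means with I3CA. NDUFAF6 (8.53 ± 0.24 SD with DMSO, 8.36 ± 0.14 SD with I3CA, n = 4 each) led them at -0.17 ± 0.13, or -0.09 without DMSO replicate 1. NDUFAF1 was nearest to 0, at -0.0033 ± 0.11. ATP5SL, now named DMAC2 and also an assembly factor of complex I in spite of its symbol, differed by 0.03 ± 0.09.

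Complex II, which also works in the citric acid cycle, was represented by SDHB, SDHC and SDHD. SDHA is not analysed here. The means of all 3 were lower with I3CA. Their median difference, -0.115, was the lowest of the 5 complexes, and none passed. SDHB, the iron-sulfur subunit, read 10.05, 10.16, 10.05 and 10.24 with DMSO and 10.07, 10.10, 10.04 and 10.06 with I3CA, with DMSO replicates 2 and 4 above all I3CA arrays and replicates 1 and 3 among them (-0.05 ± 0.08). SDHC, a membrane anchor that binds heme, read 9.92, 9.92, 9.94 and 10.00 with DMSO and 9.80, 9.85, 9.74 and 9.92 with I3CA. Its I3CA replicate 4 lay level with the lowest DMSO arrays, and the other 3 lay below them (-0.11 ± 0.07). SDHD, the other anchor, read 8.76, 8.84, 8.85 and 8.89 with DMSO and 8.84, 8.37, 8.69 and 8.74 with I3CA (-0.17 ± 0.10). Its I3CA replicate 2 was the low array, and without it the difference was -0.08. The 95% interval of SDHD ran from -0.40 to 0.05. A row annotated to both SDHD and BCO2 was left out by the rule. It read 8.13, 7.94, 8.74 and 7.66 with DMSO and 8.19, 8.43, 8.03 and 7.96 with I3CA, so its groups were mixed.

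Complex III was the 1 complex whose median was not below 0, at 0.0074 over 8 genes (5 higher and 3 lower). UQCRC1 and UQCRC2, the large core proteins, differed by 0.01 ± 0.08 and 0.00 ± 0.09. UQCRFS1, the Rieske iron-sulfur protein, read 9.82 ± 0.06 (SD, n = 4) with DMSO and 9.77 ± 0.07 (SD, n = 4) with I3CA. UQCRB, which takes part in binding ubiquinone, had the highest difference at 0.08 ± 0.11, reading 11.69, 11.37, 11.84 and 11.71 with DMSO and 11.67, 11.79, 11.63 and 11.86 with I3CA. DMSO replicate 2 was its low array, and the others were mixed. UQCR11, a small subunit, differed by 0.02 ± 0.09, and UQCR10, another, by -0.03 ± 0.07, with 8 values spanning 0.14. UQCRHL, a near-identical copy of UQCRH, differed by -0.05 ± 0.09. Its row may also take up UQCRH transcripts, which cannot be told apart here. A row annotated to both UQCRH and UQCRHL was left out by the rule. It read 9.84, 10.09, 9.82 and 9.66 with DMSO and 9.82, 9.84, 9.70 and 8.89 with I3CA. Its I3CA replicate 4 lay far below all other arrays, and the other I3CA arrays lay among the DMSO arrays.

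Complex IV had 10 genes with a median of -0.043, 6 lower and 4 higher. COX7A2L, a relative of COX7A2 that joins complexes III and IV into supercomplexes, was the 1 gene of 78 whose groups did not overlap, against 1.92% of all genes in either direction and 0.956% with all I3CA arrays below. It read 10.59, 10.58, 10.72 and 10.60 with DMSO and 10.45, 10.57, 10.56 and 10.46 with I3CA. The gap between the groups was narrow, since I3CA replicate 2 lay just under DMSO replicate 2, and the difference was -0.11 ± 0.07. DMSO replicate 3 stood far above its group, and without it the difference was -0.08.

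Among the subunits proper, COX7C differed by -0.09 ± 0.08, COX4I1, the common isoform of a regulatory subunit, by -0.08 ± 0.10 and COX7A2 by -0.07 ± 0.07. That of COX4I1 was -0.0038 without DMSO replicate 2. On the higher side were COX6B1 (0.04 ± 0.09), which faces the intermembrane space, and COX7B (0.03 ± 0.08). COX5A had the smallest SE of all 78 genes, with 8 values between 11.05 and 11.16. COX8A spread widely with DMSO (11.56 ± 0.24 SD) and hardly with I3CA (11.56 ± 0.03 SD, n = 4 each), a contrast that was not tested. The alternative isoforms COX4I2, COX6A2, COX6B2 and COX7A1 are not analysed here.

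Genes with an ATP5 symbol numbered 15, 13 of them subunits of complex V, with a median of -0.043 and 12 lower by mean. Those of the catalytic head stood at -0.05 ± 0.07 for ATP5A1 (the alpha subunit, now ATP5F1A), 0.00 ± 0.07 for ATP5B (the beta subunit, now ATP5F1B), -0.07 ± 0.10 for ATP5C1 (gamma, now ATP5F1C) and -0.07 ± 0.10 for ATP5D (delta, now ATP5F1D). ATP5B had the narrowest range of all 78, reading 12.76, 12.83, 12.76 and 12.75 with DMSO and 12.72, 12.76, 12.81 and 12.80 with I3CA. Its 95% interval ran from -0.15 to 0.16. ATP5E shared its row with a further symbol and was left out.

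In the peripheral stalk, which holds the head still, ATP5J (coupling factor 6, now ATP5PF) read 8.68, 8.58, 8.74 and 9.22 with DMSO and 8.26, 8.62, 8.90 and 8.64 with I3CA. DMSO replicate 4 was its highest array and I3CA replicate 1 its lowest, and the rest were mixed (-0.20 ± 0.16). Without DMSO replicate 4 the difference was -0.06, and without I3CA replicate 1 it was -0.09. ATP5F1 (subunit b, now ATP5PB) differed by -0.08 ± 0.08, ATP5O (OSCP, now ATP5PO) by -0.02 ± 0.11 and ATP5H (subunit d, now ATP5PD) by 0.02 ± 0.08. ATP5G1, ATP5G2 and ATP5G3 (now ATP5MC1 to ATP5MC3) encode the same mature c subunit of the rotating ring. They differed by -0.01 ± 0.09, -0.04 ± 0.07 and -0.08 ± 0.09. The small membrane subunits ATP5I (subunit e, now ATP5ME) and ATP5J2 (subunit f, now ATP5MF) stood at -0.01 ± 0.08 and -0.04 ± 0.07.

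ATP5L2 (now ATP5MGL), a relative of the gene for subunit g that is not counted here as a subunit, had the lowest difference of all. It read 8.27, 8.53, 8.82 and 9.05 with DMSO and 8.10, 8.42, 8.65 and 8.23 with I3CA, so that DMSO replicates 3 and 4 lay above every I3CA array and the other DMSO arrays among them (-0.32 ± 0.17). Without DMSO replicate 4 the difference was -0.19, and without both arrays numbered 4 it was -0.15. NDUFA4L2, a relative of NDUFA4 known to be induced by hypoxia, was kept apart from complex I because NDUFA4 is now placed in complex IV. It differed by 0.10 ± 0.12 (8.79 ± 0.18 SD against 8.90 ± 0.18 SD, n = 4 each). NDUFB2-AS1, an antisense RNA, matched the symbol rule too and stood at 0.00 ± 0.09.

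**Figure D2:**
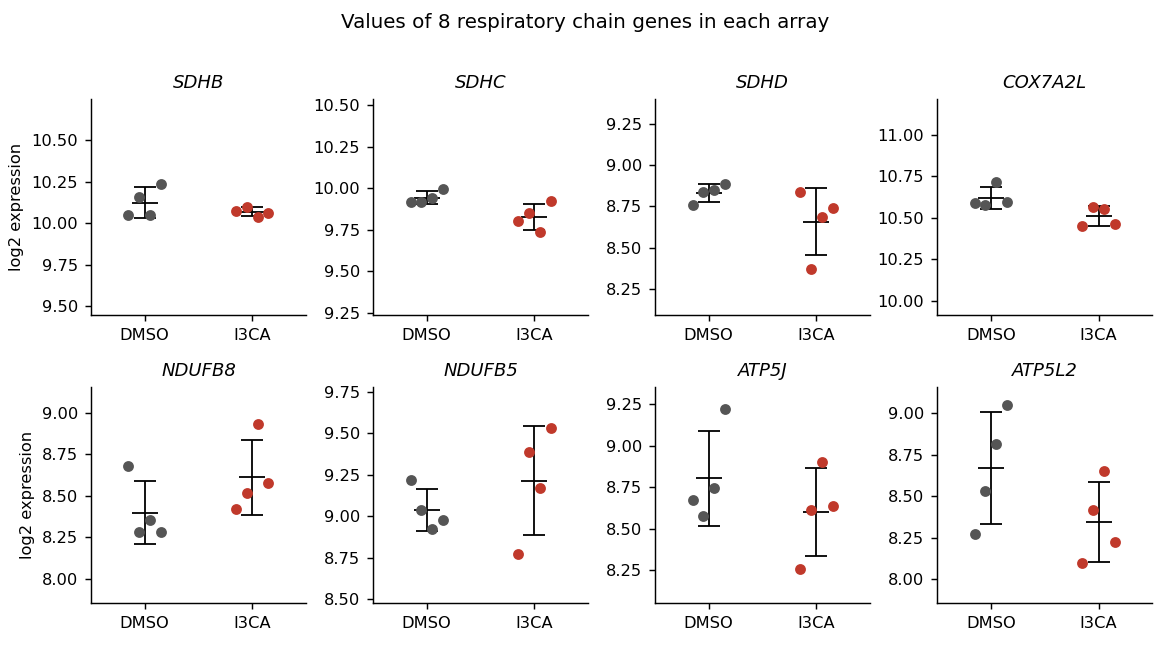
Log2 expression of 8 genes in each of the 4 DMSO and 4 I3CA arrays (points), with the group mean and SD (bars); each panel spans the same range of log2 units, and the axes do not start at 0. The groups overlap in all panels but that of COX7A2L, where the highest I3CA array (10.57) lies just under the lowest DMSO array (10.58).

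The complexes were then set side by side by the mean of their genes in each array. Complex I averaged 9.54 ± 0.02 with DMSO and 9.52 ± 0.05 with I3CA (SD, n = 4 each, as for the other complexes), and complex III 10.21 ± 0.02 and 10.21 ± 0.03. In both, the DMSO and I3CA arrays were interleaved. For complex II the means were 9.63 ± 0.06 and 9.52 ± 0.07, with I3CA replicate 2 lowest (9.44) and DMSO replicate 4 highest (9.71). Its groups did not overlap, but DMSO replicate 1 and I3CA replicate 4 were equal to 2 decimals (9.58 each), and the mean rests on 3 genes.

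For complex IV the means were 10.48 ± 0.03 and 10.44 ± 0.01, and for complex V 10.72 ± 0.04 and 10.66 ± 0.04. Complex V also had its lowest mean in I3CA replicate 1 (10.60) and its highest in DMSO replicate 4 (10.77), and its groups overlapped, as did those of complex IV. The differences between these means were -0.03, -0.11, 0.00, -0.04 and -0.06 for complexes I to V. No p-value is given for such means, since the genes were chosen with earlier results of these arrays known, and differences between complexes were not tested. Over all 78 genes the means were 9.93 ± 0.02 and 9.90 ± 0.04, a difference of -0.03. I3CA replicate 3 (9.93) lay among the DMSO arrays (9.92 to 9.95), I3CA replicates 1 and 2 (9.85 and 9.88) below them, and I3CA replicate 4 (9.917) just below the lowest of them (9.919). Over all genes tested, too, I3CA replicates 1 and 2 were the lowest arrays, at 9.04 each, with the others between 9.05 and 9.06. The part of that array shift in the lower means was not tested beyond centring each array on its median, which gave a median of -0.033 in place of -0.037.

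**Figure D3:**
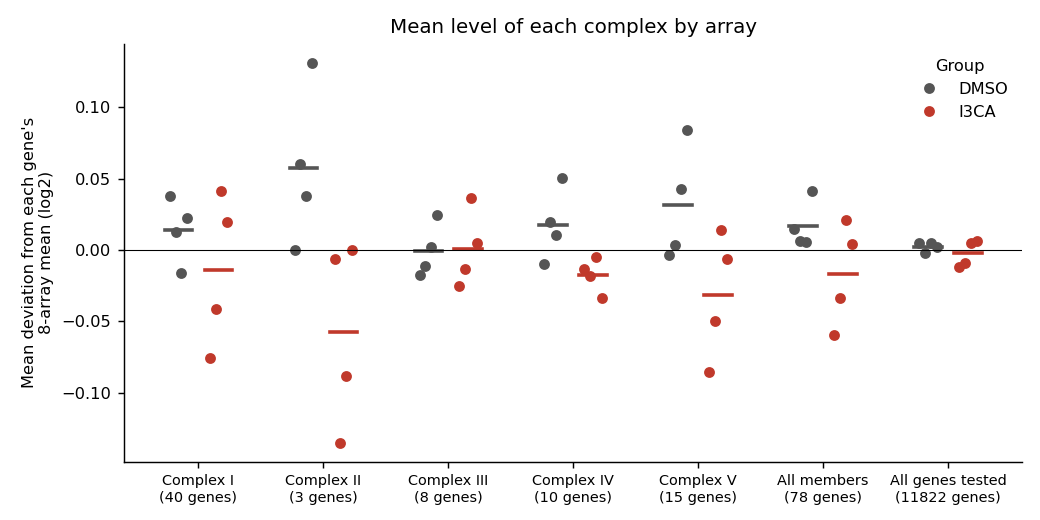
Mean deviation of the genes of each complex from their own 8-array means (log2), 1 point per array, with the group mean as a bar; genes are grouped by symbol. DMSO and I3CA points overlap in complexes I, III, IV and V, and the bars lie farthest apart in complex II (-0.11), where the nearest points of both groups are level.

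Other genes of the pathway were followed in lists, of which only the assembly factors of complex I share genes with the 78 (the 7 NDUFAF genes). Of the 14 measured assembly factors of complex I, 12 were lower by mean, with a median of -0.040, and NUBPL, which delivers iron-sulfur clusters, was lowest at -0.30 ± 0.16. The 18 measured for complex IV had a median of -0.041, led by CMC1 at -0.51 ± 0.24, a gene whose I3CA arrays ran from 6.76 to 8.06. BCS1L, which inserts the Rieske protein into complex III, differed by -0.29 ± 0.10 (9.27 ± 0.13 SD with DMSO, 8.98 ± 0.16 SD with I3CA, n = 4 each; limma adjusted p = 1.00), while the median of its 6 genes was -0.0011. For complex V, ATPAF2, a chaperone of the alpha subunit, differed by 0.28 ± 0.12 (limma adjusted p = 1.00) in a list of 4 with a median of -0.012. The 2 measured for complex II, led by ACN9 (now SDHAF3, -0.07 ± 0.10), had a median of -0.030. In limma 0 genes of these 5 lists passed, and only BCS1L and ATPAF2 lay under an unadjusted p of 0.05, against 3.16% of all genes.

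The list of electron carriers and genes that feed them had a median of -0.063 over 9, with 7 lower. It holds CYC1, cytochrome c1 of complex III, whose symbol falls outside the rule for the 78 (-0.01 ± 0.08). CHDH, choline dehydrogenase, read 8.16, 7.95, 8.21 and 8.49 with DMSO and 7.74, 7.52, 7.77 and 7.25 with I3CA. Every I3CA array lay below every DMSO array, and the difference was -0.63 ± 0.14, which did not pass over all genes (limma adjusted p = 0.855). It was the lowest difference of any gene in these lists. All I3CA arrays also lay below all DMSO arrays in DHODH, so in 2 of the 9 genes of this list, against 0.956% of all genes tested. The same held for 1 of 18 assembly factors of complex IV (SCO1) and 1 of 13 ubiquinone synthesis genes (COQ2). It also held for 1 of 7 carriers and porins (VDAC2) and for 0 genes of the other pathway lists. These counts were not tested. Ubiquinone synthesis genes had a median of -0.0092 over 13. COQ2, which attaches the side chain, had the smallest unadjusted limma p among them (-0.18 ± 0.09), while PDSS1 was lowest (-0.24 ± 0.13). The 11 measured citric acid cycle enzymes had a median of -0.032, 6 lower and 5 higher. SUCLA2, a subunit of succinyl-CoA ligase, was lowest at -0.17 ± 0.09, and DLST was highest at 0.18 ± 0.11.

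Transcriptional regulators of the chain differed little. The 10 measured had a median of -0.0092 and lay between -0.12 for GABPB1, a GABP subunit, and 0.09 for YY1. NRF1 stood at -0.03 ± 0.10, GABPA at -0.08 ± 0.09 and PPARGC1A, the coactivator PGC-1 alpha, at 0.07 ± 0.13. All 9 measured genes for transcription and upkeep of mitochondrial DNA had lower means with I3CA, with a median of -0.045. MTERFD1 (now MTERF3) led them at -0.22 ± 0.10 (limma adjusted p = 1.00), TFAM, which packs mitochondrial DNA, stood at -0.10 ± 0.13, and 0 of the 9 passed over all genes. Of the 7 measured adenine nucleotide carriers, porins and the phosphate carrier 6 were lower, with a median of -0.059 and VDAC2, a porin, lowest at -0.08 ± 0.07. The 13 subunits encoded by mitochondrial DNA are not analysed here.

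**Figure D4:**
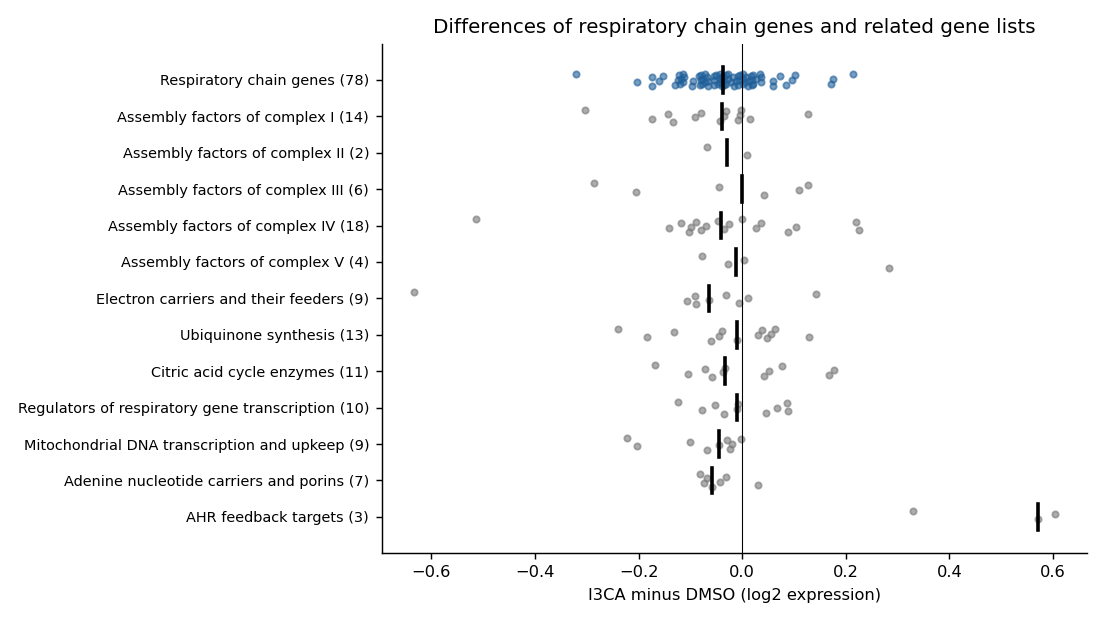
Differences between I3CA and DMSO (log2 expression) of single genes (points) with the median of each list (black bars) and the number of measured genes in parentheses. The respiratory chain genes lie between -0.32 and 0.21, and the AHR feedback targets between 0.33 and 0.60.

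As a check on the treatment, 3 feedback targets of AHR were set beside these values. TIPARP, an ADP-ribosyltransferase, differed by 0.60 ± 0.13, CYP1B1, a cytochrome P450, by 0.57 ± 0.15 and AHRR, the AHR repressor, by 0.33 ± 0.11. The annotation gives no identifier, so the reading of that symbol was not checked. None of them passed over all genes (smallest limma adjusted p = 0.792), and each lay above the highest of the 78, NDUFB8 at 0.21.

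What the genes share outside their symbols was looked for in their promoters, taken from RefSeq on GRCh38.p14 as windows from 250 bases before to 50 bases after a gene's start. Of the 78 genes 65 matched the table. Motifs were searched as exact letters on both strands, and a gene counted if any of its windows held a match. The letters were chosen after the expression values were known. Those for NRF1 were GCGCATGCG, for ETS factors such as GABP CCGGAAG, for YY1 AAGATGGC and for the core of the AHR response element GCGTG. An NRF1 match was found in 11 of the 65 (16.9%), against 2.34% of all 27305 genes in the table and 3.97% of the 8903 genes tested that matched it by symbol. YY1 letters were found in 12 (18.5%, against 3.52% and 6.50%) and ETS letters in 17 (26.2%, against 12.2% and 20.5%). At least 1 of these 3 motifs was present in 34 of the 65 (52.3%, against 16.6% of all genes in the table). That share was not taken over the genes tested. The AHR core, at 5 letters a short motif, was found in 36 of the 65 (55.4%, against 40.6% of all genes in the table and 58.1% of those tested). The NRF1 and YY1 shares depended on the form of the search, which was changed after matches had been seen. The search first used the NRF1 letters with a final C, in the 250 bases before the start. These 10 letters read the same on both strands. They gave 3 of 65 genes (4.62%, against 1.28% of all genes in the table and 2.26% of those tested). The whole window then gave 5 (7.69%, against 1.52% and 2.54%). The shorter letters in the 250 bases gave 9 (13.8%, against 2.02% and 3.56%). In those 250 bases the YY1 letters were in 1 gene of 65 (1.54%, against 1.64% and 2.39%), ATP5J. The ETS letters there were in 15 (23.1%, against 10.2% and 17.5%) and the AHR core in 35 (53.8%, against 36.2% and 52.9%). These shares describe letters and carry no test, and the absence of a match says only that those letters are not in the window. The median difference was -0.037 in the 36 genes with the AHR core and -0.027 in the 29 without it. For NRF1 it was -0.043 with the letters and -0.034 without, for YY1 -0.046 and -0.032, and for ETS -0.054 and -0.032.

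The promoters of 3 genes described above are shown, because SDHD and ATP5J were the lowest subunits of complexes II and V and COX7A2L was the gene whose groups did not overlap. Each is the run of 250 bases before the start, read 5′ to 3′ on the gene's strand. Capitals mark matches to the motifs: in SDHD the NRF1 letters on both strands, overlapping each other, and the ETS letters on the reverse strand; in ATP5J the NRF1, YY1 and ETS letters in that order; in COX7A2L the AHR core. ATP5J and COX7A2L each have 2 windows in the table, of which the first is shown. ATP5J was also counted as holding the AHR core, through the window that is not shown.
SDHD (chr11:112086623-112086872, plus strand): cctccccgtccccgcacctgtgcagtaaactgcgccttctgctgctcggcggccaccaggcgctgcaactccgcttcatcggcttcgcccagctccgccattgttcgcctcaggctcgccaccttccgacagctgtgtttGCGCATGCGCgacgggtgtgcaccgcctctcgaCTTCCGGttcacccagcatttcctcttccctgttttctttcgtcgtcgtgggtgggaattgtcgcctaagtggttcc
ATP5J (chr21:25735055-25735304, minus strand): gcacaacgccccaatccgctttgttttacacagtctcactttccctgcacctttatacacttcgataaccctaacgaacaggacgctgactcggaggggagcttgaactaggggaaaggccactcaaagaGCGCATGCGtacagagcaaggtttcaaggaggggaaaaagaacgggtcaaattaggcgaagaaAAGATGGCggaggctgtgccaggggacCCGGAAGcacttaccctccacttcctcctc
COX7A2L (chr2:42361218-42361467, minus strand): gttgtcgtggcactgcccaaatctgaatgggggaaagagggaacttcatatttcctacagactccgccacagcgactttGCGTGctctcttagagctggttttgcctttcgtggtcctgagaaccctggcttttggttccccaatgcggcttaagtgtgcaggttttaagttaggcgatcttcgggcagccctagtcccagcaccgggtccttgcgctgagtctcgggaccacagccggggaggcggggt
The NRF1 letters of SDHD began 110 bases before the start and its ETS letters 77 bases before. In ATP5J the NRF1 letters began 120, the YY1 letters 57 and the ETS letters 30 bases before the start, and in COX7A2L the AHR core began 171 bases before. The NRF1 match of SDHD, but not that of ATP5J, was also found with the final C. SDHD and ATP5J differed by -0.17 and -0.20, while NDUFA8, which also holds the NRF1 letters, differed by 0.17.

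Over the whole table of 13486 rows the array medians lay between 8.80 and 8.83, and any 2 arrays correlated across the 78 genes at 0.972 to 0.990, a description over genes, which are not independent replicates. The glioma and glial markers on hand read 13.08 (VIM), 11.15 (CD44), 12.08 (TNC), 10.78 (CHI3L1), 8.28 (GFAP) and 8.08 (NES) as DMSO means. Their 6 measured members differed by 0.02 to 0.11. SOX2, OLIG2, S100B and FABP7 are not analysed here. Markers of other cell types were measured for 2 endothelial, 3 macrophage, 5 neuron and 3 epithelial genes. Their differences lay between -0.28 and 0.27, and 0 passed. The lowest was that of SYP, whose I3CA replicate 2 read 6.67, with its other I3CA arrays between 8.67 and 9.41. The table holds no measure of background, so a level in it does not show that a gene is expressed, and levels of different genes are not compared. The precision is limited by the number of arrays.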

How the data were processed

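RNA of 8 arrays (4 DMSO, 4 I3CA) was measured. The deposited values are log2 expression, 1 value per probe set and array, made by the authors with oligo and RMA per the submitters' processing notes. RMA corrects background, quantile-normalizes and summarises probes. The genome build, any filter on rows and whether other arrays were normalized with these are not given in the sources used here.

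Of 13486 rows, 11850 had 1 symbol in the platform annotation, 657 had several and 979 were not listed. The row with the highest mean stood for a gene, which dropped 28 rows, none of them of the 78. A further 12 rows with several symbols held a symbol of this kind and were left out. Symbols are those of the annotation, which is old. RefSeq synonyms gave a current symbol for all 78, unchanged for 62.

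I3CA was compared with DMSO in limma 3.58.1 (R 4.3.3; lmFit and eBayes, two-sided, no covariate, Benjamini-Hochberg over 11822 genes), tested on simulated data first. SEs and 95% intervals are limma's. Slide and scan date were not given, so batches could not be tested.

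The genes and lists were chosen with earlier results of these data known. Genes were named by rule: complex II, the 2 highest and 2 lowest differences of each other complex, groups without overlap, isoforms, single arrays standing apart and, for each list, the smallest p. Other genes named were chosen after their values were seen. Complexes followed symbols, so NDUFAF genes count under complex I and ATP5SL under V. Same-numbered arrays were not taken as pairs. Their deviations correlated at 0.04, 0.07, 0.05 and 0.32 for replicates 1 to 4 over all genes. No threshold was set for this, and arrays of different number were not compared in the same way. Alternatives covered the replicate block, normalization, centring, a brightness filter, rows per gene, the prior variance, array weights and left-out arrays. The form of the promoter search was changed after matches had been seen, and each form run is reported.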

Additional observations from a re-analysis of the deposited data

Results flagged for a closer look

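In 9 of 156 groups of 4 arrays (78 genes, 2 groups each), 1 array stood apart from the other 3 by Dixon's criterion. Chance gives about 1 in 20, or 7.8 groups. The high arrays were DMSO replicate 2 of ATP5B (12.83, the others up to 12.76) and DMSO replicate 3 of COX7A2L (10.72, the others up to 10.60). The low DMSO arrays were replicate 1 of ATP5C1 (10.57), replicate 3 of ATP5SL (9.63), replicate 2 of NDUFA7 (9.12) and replicate 1 of NDUFB6 (9.48). The low I3CA arrays were replicate 2 of NDUFA2 (8.87), replicate 2 of NDUFB4 (10.66) and replicate 1 of NDUFS6 (9.10).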

How the results depend on the processing

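No respiratory chain gene passed limma's test under any of the 16 alternatives (smallest adjusted p among the named genes 0.986), and 1 gene passed over all genes in each. The median of the 78 stayed between -0.048 and -0.022 and the share with lower means between 59.0% and 74.4%. Medians ran from -0.054 to -0.0087 for complex I, -0.15 to -0.079 for II, -0.014 to 0.013 for III, -0.053 to -0.025 for IV and -0.056 to -0.027 for V. The replicate block gave 1 gene of 78 with an unadjusted p under 0.05 (ATP5L2, with a limma adjusted p of 0.986), where the fit without it gave 0. The block changed no other call. Leaving out 1 array gave 0 to 2 such genes: 2 without DMSO replicate 1 (ATP5L2, NDUFB8), 1 without DMSO replicate 2 (NDUFA8), 1 without I3CA replicate 1 (NDUFB5) and 2 without I3CA replicate 3 (ATP5L2, NDUFS3). Of 507 alternative values of 32 named genes, 31 turned their sign and 0 passed. Without both arrays numbered 4 these were ATP5B (-0.016), ATP5C1 (0.0071), ATP5G1 (0.0019), ATP5H (-0.0023), NDUFB6 (0.063) and UQCRHL (0.020). With array weights it was ATP5B (-0.0047), and with a second quantile normalization NDUFA2 (0.0012). With 1 array left out, signs turned within -0.0092 to 0.021 for ATP5B, -0.056 to 0.038 for ATP5G1, -0.016 to 0.064 for ATP5H, -0.0069 to 0.099 for ATP5SL, -0.028 to 0.089 for COX6B1, -0.042 to 0.088 for NDUFA2, -0.093 to 0.047 for NDUFB6, -0.27 to 0.0093 for NDUFS6, -0.024 to 0.077 for UQCR11 and -0.0093 to 0.15 for UQCRB. The cause was not tested. In promoters, a search chosen after seeing the data gave NRF1 letters in 3 to 11 genes of 65 and YY1 letters in 1 or 12, by window and motif length.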
